A study of Mus musculus with 8 samples.

Results

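The E protein genes and the Id genes of mouse were described in primary embryonic neural stem cells as 7 genes picked by symbol: Tcf3, Tcf4 and Tcf12 for the E proteins, and Id1, Id2, Id3 and Id4 for their inhibitors. All 7 were found among the 15538 genes of the deposited table by their Ensembl identifiers. The study used bulk RNA sequencing of polyadenylated RNA from primary neurospheres, floating clusters of neural stem cells cultured from embryonic mouse brain, to ask how their differentiation depends on Phf23, which encodes a chromatin protein with a PHD finger. The 4 libraries labelled Phf23-/- carry the homozygous mutation by their labels, and the 4 labelled WT are Phf23+/+. How the allele was made, the mouse strain, the embryonic age and whether replicates came from separate animals or cultures are not stated in the labels used here. The p-values therefore cover the spread among these 8 libraries alone, and that spread may be technical.

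E proteins are basic helix-loop-helix transcription factors that bind DNA at the E-box, letters CANNTG, as dimers with each other or with tissue-specific partners such as the proneural factor Neurod1. Id proteins carry a helix-loop-helix but lack the basic stretch that contacts DNA, so a dimer of an E protein with an Id protein does not bind the E-box. In the developing brain Id genes are known as targets of bone morphogenetic protein signals and as factors that hold neural progenitors in an undifferentiated state, and E proteins are the obligate partners of proneural factors. The balance of the 2 families is what a ratio of their transcripts describes, at the level of RNA and not of protein.

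The coding sequences show how close the paralogs are within each family, which bears on whether reads can be told apart. A stretch of 90 coding bases that aligns without gaps is shown, which in the Id genes encodes the loop and the later helix of the helix-loop-helix. Each is printed 5′ to 3′ from GENCODE mouse release M21 transcripts, with capitals at bases that are identical in all 4 Id genes.
Id1: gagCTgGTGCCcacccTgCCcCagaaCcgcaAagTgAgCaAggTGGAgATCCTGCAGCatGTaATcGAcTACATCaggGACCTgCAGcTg
Id2: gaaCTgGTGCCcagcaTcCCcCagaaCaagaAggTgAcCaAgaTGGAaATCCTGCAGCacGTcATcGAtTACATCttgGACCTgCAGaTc
Id3: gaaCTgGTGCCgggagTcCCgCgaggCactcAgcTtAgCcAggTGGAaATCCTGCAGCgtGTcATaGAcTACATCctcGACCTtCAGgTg
Id4: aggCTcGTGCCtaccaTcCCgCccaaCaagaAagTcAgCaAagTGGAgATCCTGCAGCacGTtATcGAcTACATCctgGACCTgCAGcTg
Of these 90 bases, 52 were identical in all 4. Id1 shared 72 of 90 with Id2 and 72 with Id4, and Id3 was the most distant, with 61 identical to Id1, 61 to Id4 and 64 to Id2. For the E proteins a stretch from the end of the helix-loop-helix is shown, with capitals at bases identical in both genes. No Tcf4 sequence is printed.
Tcf3: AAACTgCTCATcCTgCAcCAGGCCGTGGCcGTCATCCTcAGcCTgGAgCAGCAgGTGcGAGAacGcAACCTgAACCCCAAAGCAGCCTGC
Tcf12: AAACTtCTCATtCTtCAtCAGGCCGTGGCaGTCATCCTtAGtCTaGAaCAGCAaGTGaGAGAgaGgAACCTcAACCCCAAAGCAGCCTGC
Here 75 of 90 bases were identical, and in all 14 codons that differed the encoded residue was the same. Along whole transcripts no 50-base run of Tcf3, Tcf4, Id1 or Id3 occurred in the transcript of another annotated gene. Tcf12 shared 17 of 6250 such runs with other genes and Id2 shared 8 of 1920 with its pseudogene Gm6175. Id4 shared 79 of 3800, mainly with Gm49291, a long noncoding RNA on the opposite strand. Exons of Gm49291 and of the antisense gene A330033J07Rik overlap Id4 exons by 171 and 82 nt. Because the use of strand in counting is not stated in those labels, reads of these genes cannot be told from Id4 reads there.

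Promoter windows are shown for the members with 1 window each in the RefSeq table, among them genes that rose and Id2, which did not pass the test. Each runs from 250 bases before to 50 after the transcript start given there, in assembly GRCm38.p6, and capitals mark an E-box (CANNTG) or the GC-rich motif GGCGCC.
Tcf3, chr10:80433586-80433885, minus strand: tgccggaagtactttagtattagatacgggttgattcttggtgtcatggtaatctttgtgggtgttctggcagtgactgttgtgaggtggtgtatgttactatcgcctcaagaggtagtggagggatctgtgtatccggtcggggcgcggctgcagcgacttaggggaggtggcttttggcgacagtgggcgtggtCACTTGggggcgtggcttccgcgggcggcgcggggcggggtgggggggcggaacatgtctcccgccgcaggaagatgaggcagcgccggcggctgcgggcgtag
Id2, chr12:25096043-25096342, minus strand: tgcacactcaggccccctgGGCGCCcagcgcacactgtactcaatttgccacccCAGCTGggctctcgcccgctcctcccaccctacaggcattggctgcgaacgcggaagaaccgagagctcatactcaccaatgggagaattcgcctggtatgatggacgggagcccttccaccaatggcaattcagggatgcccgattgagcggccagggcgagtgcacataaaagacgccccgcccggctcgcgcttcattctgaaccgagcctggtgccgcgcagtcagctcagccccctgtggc
Id3, chr4:136143572-136143871, plus strand: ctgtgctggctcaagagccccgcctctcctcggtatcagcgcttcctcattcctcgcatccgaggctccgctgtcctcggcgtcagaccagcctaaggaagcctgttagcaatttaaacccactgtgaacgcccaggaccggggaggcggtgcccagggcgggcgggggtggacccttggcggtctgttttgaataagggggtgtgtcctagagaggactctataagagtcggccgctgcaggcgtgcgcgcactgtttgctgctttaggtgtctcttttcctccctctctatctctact
Id4, chr13:48260866-48261165, plus strand: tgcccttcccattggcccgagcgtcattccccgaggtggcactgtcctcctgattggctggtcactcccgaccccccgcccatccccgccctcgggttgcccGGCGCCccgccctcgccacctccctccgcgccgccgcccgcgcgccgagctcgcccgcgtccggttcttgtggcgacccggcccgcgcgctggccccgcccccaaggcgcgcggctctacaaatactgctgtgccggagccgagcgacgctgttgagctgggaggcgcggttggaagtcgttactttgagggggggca
The Tcf3 window held 1 E-box, CACTTG at position -54 from the start. The Id2 window held 1 E-box, CAGCTG at position -196, and 1 GGCGCC. The Id4 window held 1 GGCGCC and no E-box, and the Id3 window held neither. Tcf12 had 3 windows for 3 starts, each with at least 1 E-box, and Id1 and Tcf4 were not matched to a window, so 5 of the 7 members were searched. Over 32817 windows of all genes, searched on both strands, 72.3% held a CANNTG, 16.3% a CAGCTG and 11.9% a GGCGCC. The E-box CAGGTG was found in 20.2% of all windows and the SMAD-type letters CAGACA in 21.04%, and neither was found in a window of the members. A match is a description of letters and not of binding.

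Library depth ran from 15647304 to 19462516 recovered reads. Phf23 itself averaged 1481 ± 108 normalised reads in the libraries labelled Phf23-/- and 798 ± 85.4 in WT libraries (SD, n = 4 each), so the targeted gene went against its label. The log2 fold change was 0.89 ± 0.11 (SE, FDR = 0.000581), and reads summed over all exons cannot show whether only a part was deleted. All directions below are between libraries as labelled. The libraries also differed in how reads depended on transcript length. This length slope, given as the log2 change for each doubling of transcript length, was -0.24, -0.31, -0.09 and 0.04 in the libraries labelled Phf23-/- 1 to 4, against 0.26, 0.20, 0.08 and 0.06 in WT 1 to 4 (exact permutation test, two-sided, p = 0.0286, the smallest that 4 against 4 allows). All 4 slopes labelled Phf23-/- lay below all 4 of WT, and libraries 3 and 4 of each genotype lay closest together. Transcripts of Tcf4 and Tcf12 are longer than those of the Id genes, and that of Tcf3 is longer than all but Id4. The main results below are therefore also given with a smooth trend in length and GC content subtracted from each library. Neural stem cell markers were abundant, with 9 of 9 measured and summed levels of 154873 to 196689 normalised reads in the libraries labelled Phf23-/- and 133820 to 143662 in WT libraries. Of these 9, 3 were higher and 0 lower by the test described below. Summed neuron markers, mostly Map2, ran from 9544 to 12456 in the libraries labelled Phf23-/- and from 15596 to 20954 in WT libraries, with 1 of 7 higher and 1 lower. Summed astrocyte markers ran from 7964 to 8798 in the libraries labelled Phf23-/- and from 9287 to 10147 in WT, but 3 of 6 were higher and 3 lower, with Gfap at 536 against 283 in WT and Aldh1l1 at 1479 against 2746 in WT. Summed oligodendrocyte lineage markers ran from 2395 to 3337 in the libraries labelled Phf23-/- and from 3242 to 3473 in WT, with 5 of 7 higher, among them Mbp (193 against 46.2 in WT), and 1 lower, the abundant Cspg4 (1414 against 2336 in WT). The part of these markers in the results below was not tested. Endothelial, pericyte, choroid plexus and microglial markers summed to at most 105 normalised reads per list in any library, and the defining markers Cdh5, Cldn5, Pdgfrb, Aif1, Ptprc and Ttr had no row and were not analysed here. In bulk RNA, fewer cells of a type and less RNA per cell cannot be told apart.

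Of the 7 members, 6 passed the test and they split in direction. Tcf4 and Tcf12 were lower in the libraries labelled Phf23-/-, and Tcf3, Id1, Id3 and Id4 were higher. The test was limma-trend, adjusted by Benjamini-Hochberg over all 15538 genes, with a call made where the false discovery rate (FDR) was under 0.05. Called genes made up 29.6% of all genes, 14.8% higher and 14.8% lower, so a call was common in these libraries. That share was 12.1% without Phf23-/- 1, 14.1% without WT 1 and 13.6% without WT 2, and with no scaling beyond total reads 11.8% of genes were called higher and 17.7% lower. The genotypes did not overlap for 5 of the 7 members (Tcf3, Tcf4, Tcf12, Id1 and Id4), as for 27.7% of all genes. After subtraction of the length and GC trend, 4 of 7 members were called (Tcf4 and Tcf12 lower, Id1 and Id4 higher), against 22% of the 13265 genes in that fit (12.7% higher and 9.24% lower). When the length slope entered the model as a covariate, 0 of 7 were called by limma-trend, against 1.09% of genes, and 2 of 7 (Tcf4 and Id4) had an unadjusted p under 0.05.

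Tcf4 encodes the E protein E2-2, whose loss of 1 copy causes Pitt-Hopkins syndrome in people. Tcf4 (ENSMUSG00000053477, mm10 chromosome 18, 69343356 to 69689079, plus strand) had 6807, 5965, 7183 and 9068 normalised reads across the libraries labelled Phf23-/- 1 to 4, against 14691, 13889, 11634 and 10860 in WT 1 to 4. Every library labelled Phf23-/- was below every WT library, and Phf23-/- 4 and WT 4 were nearest to each other. The log2 fold change was -0.82 ± 0.14 (SE, 95% interval -1.12 to -0.52, FDR = 0.00369), or 1.76-fold higher in WT. The longest of its 62 annotated transcripts has 8577 nt with 40.9% GC, the longest of the 7 members. The fitted trend at that length and GC content differed by -0.52 between the genotypes. After its subtraction Tcf4 stood at 9012, 7914, 8408 and 9132 reads in the libraries labelled Phf23-/-, against 10365, 10749, 10485 and 10661 in WT. These values still did not overlap, as for 25.4% of genes in that fit, at a log2 difference of -0.30 ± 0.06 (FDR = 0.00766).

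Tcf12 encodes HEB, an E protein that pairs with proneural factors. Tcf12 (ENSMUSG00000032228, chromosome 9, 71842688 to 72111871, minus strand) had 4953, 4126, 5682 and 6076 normalised reads across the libraries labelled Phf23-/-, against 8735, 8000, 7762 and 6839 in WT libraries. The groups did not overlap, and as for Tcf4 the fourth libraries were the closest. Tcf12 had a log2 fold change of -0.60 ± 0.13 (95% interval -0.88 to -0.32, FDR = 0.00842), or 1.50-fold higher in WT. Its longest transcript has 6299 nt with 44.4% GC. Subtraction of the trend left a difference of -0.24 ± 0.07 (FDR = 0.0309), and the groups did not overlap.

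Tcf3 encodes the splice forms E12 and E47, and it was the only E protein gene with higher reads in the libraries labelled Phf23-/-. Tcf3 (ENSMUSG00000020167, chromosome 10, 80409514 to 80433647, minus strand) had 3728, 3859, 3601 and 3606 normalised reads across the libraries labelled Phf23-/-, against 2361, 2403, 3107 and 3361 in WT. The libraries labelled Phf23-/- sat close together, while the WT libraries fell into 2 low and 2 higher values. The coefficient of variation was 3.30% in the libraries labelled Phf23-/- and 17.9% in WT libraries. Tcf3 had a log2 fold change of 0.41 ± 0.12 (95% interval 0.15 to 0.68, FDR = 0.0241), and the call was lost without Phf23-/- 1, WT 1 or WT 2 (FDR = 0.0670, 0.0806 and 0.0863). Its longest transcript is shorter and richer in GC than those of the other E proteins, with 2950 nt and 61.0% GC. With the trend subtracted the difference was 0.12 ± 0.06 (95% interval -0.01 to 0.25, FDR = 0.153), so the call ended. The groups still did not overlap there, at 3207 to 3552 reads in the libraries labelled Phf23-/- and 2993 to 3150 in WT.

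**Figure D1:**
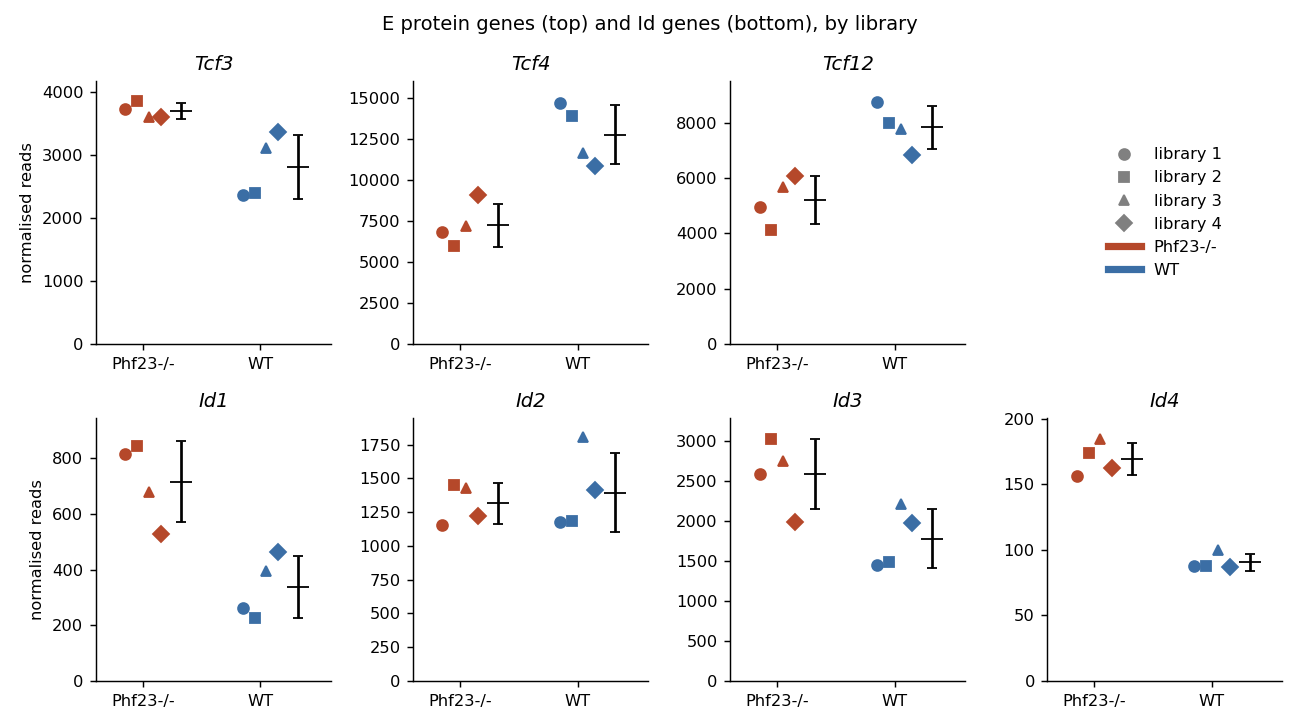
Normalised reads (y axis, linear from 0) of the 3 E protein genes in the top row and the 4 Id genes in the bottom row, for the 4 libraries labelled Phf23-/- (left, red) and the 4 WT libraries (right, blue), with marker shape giving the library number and bars the mean ± SD. Tcf4 and Tcf12 are lower and Tcf3, Id1 and Id4 higher in every library labelled Phf23-/- than in any WT library, and Id2 and Id3 overlap.

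Among the Id genes Id1 had the largest difference in the values as deposited, while Id4 was ahead of it with the trend subtracted, with libraries 3 and 4 only and with the slope covariate. Id1, a target of bone morphogenetic protein signals, lies in 1160 nt on chromosome 2 (ENSMUSG00000042745, 152736251 to 152737410, plus strand). It had 813, 843, 678 and 527 normalised reads across the libraries labelled Phf23-/-, against 263, 227, 396 and 462 in WT. The lowest library labelled Phf23-/- (527) was just above the highest WT library (462), and both were numbered 4. For Id1 the log2 fold change was 1.12 ± 0.22 (95% interval 0.65 to 1.59, FDR = 0.00619), a 2.12-fold difference. With the trend subtracted the values were 618, 608, 616 and 537 in the libraries labelled Phf23-/-, against 360, 285, 437 and 481 in WT. These groups did not overlap, at a log2 difference of 0.63 ± 0.14 (FDR = 0.00895).

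Id4, which is known for a role in the timing of neural differentiation, was the scarcest member, and its spread was small in both groups. Id4 (ENSMUSG00000021379, chromosome 13, 48261228 to 48266026, plus strand) had 156, 174, 184 and 162 normalised reads across the libraries labelled Phf23-/-, against 87.4, 87.4, 100.1 and 87.2 in WT. The recovered reads behind these were 162, 165, 198 and 166 in the libraries labelled Phf23-/-, against 89, 91, 89 and 90 in WT. All 4 values labelled Phf23-/- lay well above every WT value. At these depths counting error alone was 7.61% in the libraries labelled Phf23-/- and 10.6% in WT libraries, against a coefficient of variation of 7.39% and 7.09%. The log2 fold change was 0.89 ± 0.14 (95% interval 0.59 to 1.19, FDR = 0.00249). Its longest transcript, with 3849 nt and 42.6% GC, is the longest among the Id genes, and subtraction of the trend enlarged the difference to 1.05 ± 0.13 (FDR = 0.000279). With the slope covariate it was 0.85 ± 0.23 (FDR = 0.0961), and with libraries 3 and 4 only it was 0.88 ± 0.21 (FDR = 0.00115).

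Id3 was the most abundant Id gene, and its groups touched. Id3 (ENSMUSG00000007872, chromosome 4, 136143497 to 136145755, plus strand) had 2587, 3026, 2753 and 1988 normalised reads across the libraries labelled Phf23-/-, against 1451, 1490, 2213 and 1977 in WT. Phf23-/- 4 lay below WT 3, and the other libraries labelled Phf23-/- were above all of WT. The log2 fold change was 0.54 ± 0.16 (95% interval 0.20 to 0.89, FDR = 0.0238), and its longest transcript has 1278 nt with 55.6% GC. The call was lost without any of Phf23-/- 1, 2 or 3 or WT 1 or 2 (FDR from 0.0597 to 0.0817). Subtraction of the trend left 0.07 ± 0.09 (95% interval -0.14 to 0.27, FDR = 0.637).

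Id2, which is known to bind the retinoblastoma protein as well as E proteins, did not pass the test. Id2 (ENSMUSG00000020644, chromosome 12, 25093799 to 25097140, minus strand) had 1153, 1455, 1428 and 1225 normalised reads across the libraries labelled Phf23-/-, against 1179, 1185, 1805 and 1414 in WT. The ranges overlapped, with only WT 3 above the others by a wide margin. Its longest transcript has 1969 nt with 45.1% GC. For Id2 the log2 fold change was -0.07 ± 0.14 (95% interval -0.38 to 0.24, FDR = 0.744), an interval that includes no difference and a modest one in either direction. Once the trend was subtracted it was -0.16 ± 0.13 (95% interval -0.45 to 0.13, FDR = 0.404), and with libraries 3 and 4 only it was -0.27 ± 0.11 (FDR = 0.112).

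Libraries 3 and 4 of each genotype, whose length slopes were closest, gave calls for Tcf4 (log2 -0.48, FDR = 0.000405), Tcf12 (log2 -0.31, FDR = 0.0420), Id1 (log2 0.48, FDR = 0.00908) and Id4, against 9.15% of all genes. These were also the 4 members called with the trend subtracted. Tcf3 stood at 0.16 and Id3 at 0.16 in that fit (FDR = 0.407 and 0.401). With 2 libraries a group, the FDR leans mainly on a spread borrowed from other genes. With the slope covariate the log2 differences were -0.31 for Tcf4, -0.16 for Tcf12, 0.14 for Tcf3, 0.32 for Id1, -0.32 for Id2 and -0.01 for Id3 (FDR from 0.270 to 0.993). The slope lay lower in all 4 libraries labelled Phf23-/-, so genotype and slope share much of their variation in that fit. Compared with the values as deposited, standard errors were smaller for Tcf4 (0.11 against 0.14), Tcf12, Id1 and Id3 and larger for Tcf3, Id2 and Id4 (0.23 against 0.14).

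**Figure D2:**
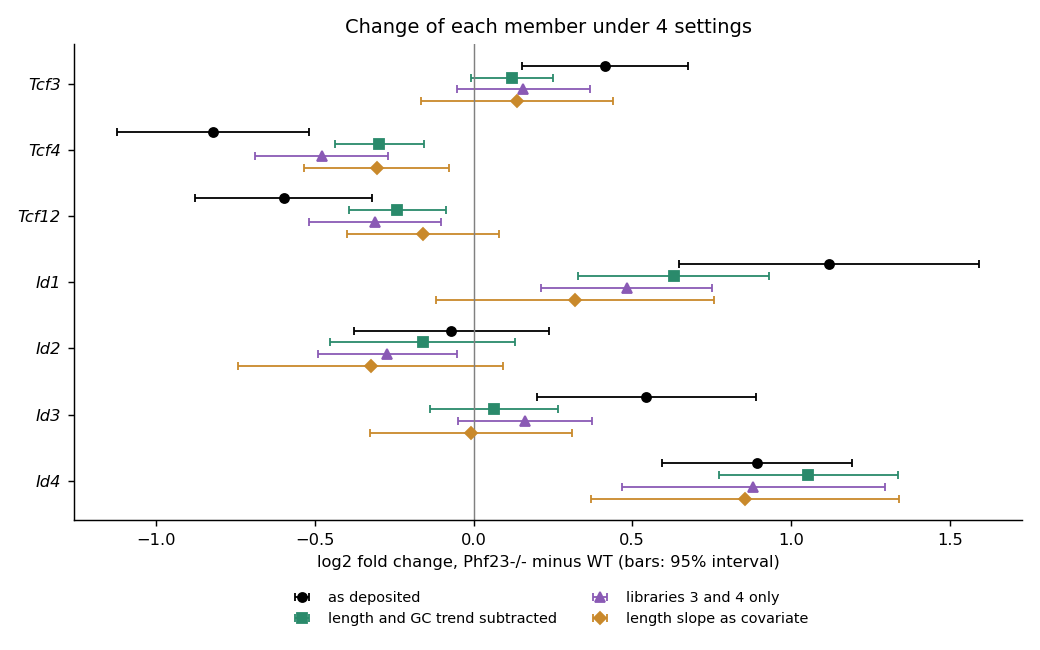
Log2 fold change (x axis, Phf23-/- minus WT) of each member (y axis) with its 95% interval, from the values as deposited, with the length and GC trend subtracted, from libraries 3 and 4 only, and with the length slope as a covariate. Tcf4 and Tcf12 are below 0 and Id1 and Id4 above 0 in all 4, while Tcf3 and Id3 are at 0.16 or less in every setting but the values as deposited.

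Levels were compared between genes as normalised reads per kb of the longest annotated transcript. In the libraries labelled Phf23-/- the order was Id3 (2025 ± 344), Tcf3 (1254 ± 41.4), Tcf4 (846 ± 153), Tcf12 (827 ± 136), Id2 (668 ± 75.8), Id1 (617 ± 125) and Id4 (43.9 ± 3.24, SD, n = 4). In WT libraries the order was Tcf4 (1489 ± 212), Id3 (1395 ± 292), Tcf12 (1244 ± 124), Tcf3 (952 ± 171), Id2 (709 ± 149), Id1 (290 ± 95.5) and Id4 (23.5 ± 1.67). In the libraries labelled Phf23-/-, Id3 was above Tcf3 and Tcf3 above Tcf4 with no overlap, while Tcf4, Tcf12, Id2 and Id1 overlapped with their neighbours. In WT libraries, Tcf4, Id3, Tcf12, Tcf3 and Id2 each overlapped with the next in order, and Id1 lay below Id2 in all. Id3 ranked highest of the 7 in all 4 libraries labelled Phf23-/- and in WT 3 and 4, and Tcf4 ranked highest in WT 1 and 2. Id4 ranked lowest in all 8. These orders are of the values as deposited. With the trend subtracted, mean WT reads were 10565 for Tcf4 and 2080 for Id3, against 12769 and 1783 as deposited. Per kb of the longest transcript Id3 then ranked highest in every library, WT 1 and 2 included. The order also depends on the length used, since Tcf4 has 62 and Tcf12 21 annotated transcripts of very different lengths. Over all 8 libraries Tcf4 averaged 1167 reads per kb by the longest transcript, 366 by the union of its exons and 5437 by its median protein-coding transcript, and Id4 was lowest by all of these. By the longest transcript, the means over 8 libraries put Id3, Tcf4, Tcf3, Tcf12 and Id2 at the 96.0, 93.7, 93.2, 92.6 and 87.9 percentile of all genes per kb, Id1 at 81.2 and Id4 at 31.6.

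Shares within each family need no scaling between libraries, but like the levels they rest on the longest transcript. Of summed E protein reads per kb, Tcf3 took 43.1 ± 4.90% in the libraries labelled Phf23-/- and 26.0 ± 5.73% in WT libraries (SD, n = 4 each). Tcf4 took 28.7 ± 2.73% in the libraries labelled Phf23-/- and 40.3 ± 4.10% in WT, and Tcf12 took 28.1 ± 2.61% against 33.7 ± 1.88% in WT. By this length Tcf3 was the leading E protein transcript in each library labelled Phf23-/- (37.7 to 49.2%) and Tcf4 in each WT library (36.3 to 43.9%). That switch depends on the length used. By the union of exons mean Tcf3 led Tcf4 in both groups (916 against 265 reads per kb in those labelled Phf23-/-, 695 against 466 in WT). By the median protein-coding transcript mean Tcf4 led Tcf3 in both (3940 against 1305 in those labelled Phf23-/-, 6934 against 991 in WT). Among Id genes, Id3 held 60.2 ± 1.43% in the libraries labelled Phf23-/- and 57.7 ± 0.666% in WT. Id1 took 18.3 ± 1.96% in the libraries labelled Phf23-/- and 11.9 ± 2.11% in WT, and Id2 took 20.1 ± 2.47% against 29.4 ± 1.79% in WT. Id4 took 1.33 ± 0.187% in the libraries labelled Phf23-/- and 0.998 ± 0.168% in WT. The shares of Id1, Id2 and Id4 did not overlap between genotypes, with Id1 at 16.6 to 20.9% in the libraries labelled Phf23-/-, against 9.84 to 14.8% in WT. Id4 was at 1.16 to 1.58% in the libraries labelled Phf23-/-, against 0.843 to 1.14% in WT. With the trend subtracted Tcf3 took 37.0 ± 2.64% in the libraries labelled Phf23-/- and 30.9 ± 0.368% in WT, and Tcf4 took 32.7 ± 1.20% against 36.6 ± 0.903% in WT, both without overlap, while Tcf12 overlapped. The shares of Id1 and Id2 stayed apart there, at 17.7 ± 1.598% and 22.2 ± 1.51% in the libraries labelled Phf23-/-, against 12.3 ± 1.83% and 26.7 ± 1.86% in WT.

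**Figure D3:**
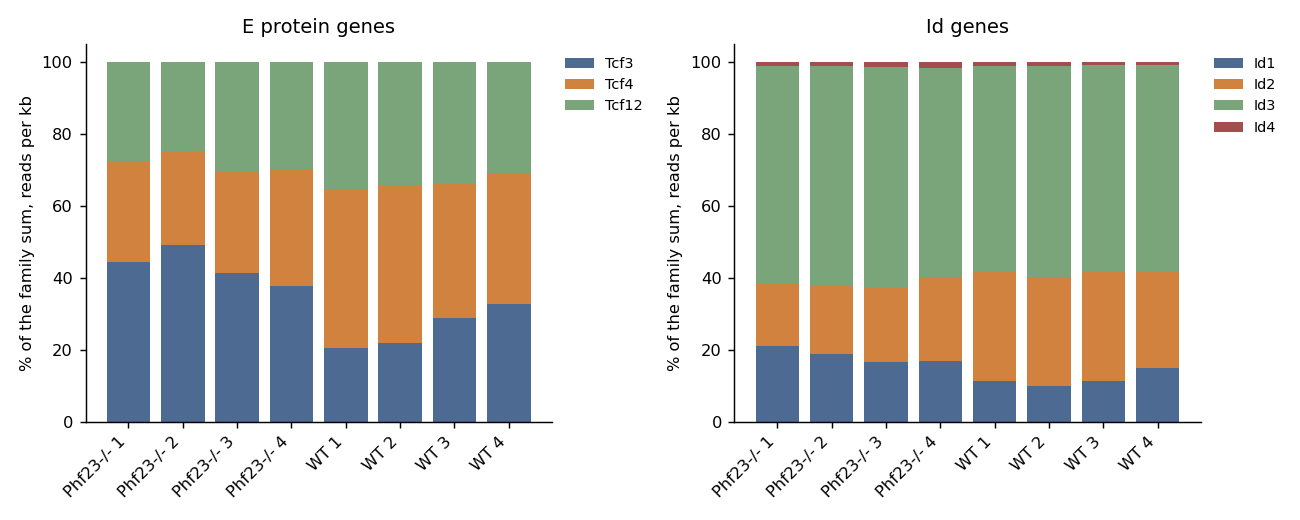
Share of each gene in the summed normalised reads per kb of its family (y axis, %), for the E protein genes (left panel) and the Id genes (right panel), in each of the 8 libraries with those labelled Phf23-/- on the left. Tcf3 takes 37.7 to 49.2% in the libraries labelled Phf23-/- and 20.5 to 32.6% in WT libraries, and Id3 takes 57.2 to 61.3% of Id reads in all libraries.

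Ratios of paralogs within a library, as log2 of reads per kb, showed which members moved apart. Tcf3 over Tcf4 was 0.67, 0.91, 0.54 and 0.21 in the libraries labelled Phf23-/-, against -1.10, -0.99, -0.36 and -0.15 in WT. By the longest transcript the sign differed between genotypes in all 8 libraries, with a difference of 1.24 between means. The sign depends on the length used, while the difference between means does not. By the union of exons Tcf3 was above Tcf4 in all 8 libraries, and by the median protein-coding transcript it was below Tcf4 in all 8. Tcf4 over Tcf12 moved less, at 0.03 ± 0.10 in the libraries labelled Phf23-/- and 0.25 ± 0.09 in WT (SD, n = 4 each), without overlap. Id1 over Id2 averaged -0.13 ± 0.32 in the libraries labelled Phf23-/- and -1.32 ± 0.33 in WT, again without overlap, and Id2 over Id4 averaged 3.92 ± 0.08 against 4.89 ± 0.20 in WT. Id1 over Id4 (3.79 ± 0.32 in the libraries labelled Phf23-/-, 3.57 ± 0.45 in WT) and Id3 over Id4 (5.51 ± 0.23 against 5.87 ± 0.24 in WT) overlapped. In trend-subtracted values the difference between means for Tcf3 over Tcf4 was 0.42, still without overlap, and that for Tcf4 over Tcf12 was -0.056, with overlap. There Id1 over Id2 differed by 0.79 and Id2 over Id4 by -1.22, both without overlap. Id3 over Id4 then differed by -0.998 without overlap, and Id1 over Id4 turned to -0.43 with overlap. The differences between paralogs were not tested.

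The ratio of the 2 families was lower in most libraries labelled Phf23-/-, and whether the genotypes overlapped depended on how it was formed. The log2 ratio of summed E protein to summed Id reads per kb was -0.24, -0.55, -0.25 and 0.28 in the libraries labelled Phf23-/-, against 0.98, 0.90, 0.27 and 0.38 in WT. Libraries labelled Phf23-/- 1 to 3 lay below all of WT, and Phf23-/- 4 was level with WT 3. On the linear scale the ratio averaged 0.897 ± 0.224 in the libraries labelled Phf23-/- and 1.58 ± 0.386 in WT libraries (SD, n = 4 each), a difference of -0.82 on the log2 scale. By the union of exons the linear ratio averaged 0.587 ± 0.126 in the libraries labelled Phf23-/- and 0.915 ± 0.184 in WT, again with overlap. By the median protein-coding transcript it averaged 2.06 ± 0.601 in the libraries labelled Phf23-/- and 4.20 ± 1.23 in WT, without overlap. The genotypes also lay apart with no division by length, with the mean of log2 values and without Id2, and overlapped without Tcf4. Over these choices the log2 difference ran from -1.03 to -0.56. The E protein sum was 2927 ± 245 reads per kb in the libraries labelled Phf23-/- and 3684 ± 169 in WT, without overlap, and the Id sum was 3354 ± 504 against 2418 ± 518 in WT, with overlap. The ratio tracked the length slope of the library, given above, in that the lowest ratio and the lowest slope were both in Phf23-/- 2 and the highest of both in WT 1. With the length and GC trend subtracted, the log2 ratio was 0.22, -0.01, -0.10 and 0.21 in the libraries labelled Phf23-/-, against 0.42, 0.51, 0.09 and 0.26 in WT. That left a difference of -0.24 between means, with overlap. The trend-subtracted E protein sum was 3067 ± 93.8 in the libraries labelled Phf23-/- and 3367 ± 49.9 in WT, without overlap. The Id sum there was 2910 ± 267 in the libraries labelled Phf23-/- and 2718 ± 389 in WT, with overlap.

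Single E protein to Id pairs did not all follow the family ratio. Of the 12 pairs, 9 had log2 ratios without overlap between genotypes, 8 of them lower in the libraries labelled Phf23-/-. Single genes did not overlap for 27.7% of all genes, and no such share was formed for ratios. The pairs reuse the same members, so they are not separate observations. Tcf4 over Id1 was the most changed, at 0.46 ± 0.56 in the libraries labelled Phf23-/- and 2.41 ± 0.68 in WT, and Tcf4 over Id4 was 4.25 ± 0.30 against 5.98 ± 0.26 in WT. Tcf3 over Id2 went the other way, at 0.91 ± 0.16 in the libraries labelled Phf23-/- and 0.43 ± 0.19 in WT. With the trend subtracted, 25.4% of single genes did not overlap. There 6 pairs kept groups apart, and these were each E protein against Id1 and against Id4. Their trend-subtracted differences ran from -1.36 for Tcf4 over Id4 to -0.51 for Tcf3 over Id1.

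**Figure D4:**
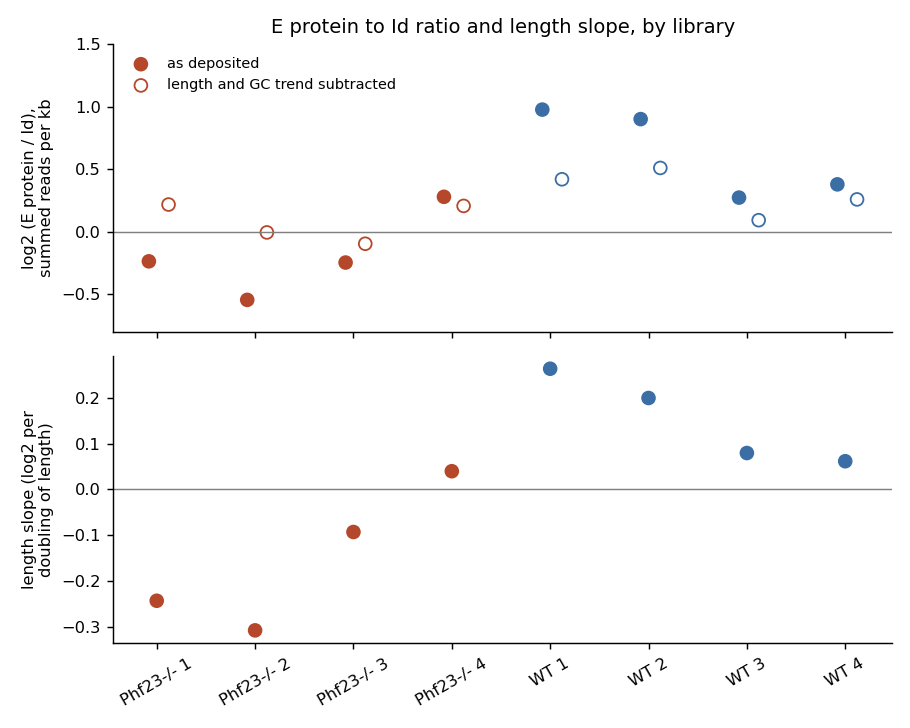
Log2 ratio of summed E protein to summed Id reads per kb in each library (upper panel; filled, as deposited; open, with the length and GC trend subtracted) above the length slope of the same library (lower panel, log2 change for each doubling of transcript length), with libraries labelled Phf23-/- in red and WT in blue. The filled ratios run from -0.55 to 0.98 and the open ones from -0.10 to 0.51.

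The genes whose profile over the 8 libraries was closest to each member were found among 10660 protein-coding genes that averaged 100 or more normalised reads. This is a description by Pearson correlation of log2 values, which a shared difference between genotypes or in length slope raises. Tcf4 was close to Phf20 (0.998), which encodes a PHD-finger protein of a histone acetyltransferase complex. Tcf12 was nearest to Thap12 (0.998) and Cep135 (0.997), and Tcf3 to Dmrta2 (0.993), which encodes a transcription factor of cortical progenitors, and Pola2 (0.992), a subunit of DNA polymerase alpha. Id1 was nearest to the cell cycle inhibitor gene Cdkn2d (0.995) and Emc10 (0.994), and with the trend subtracted these fell to 0.833 and 0.345. Id3 was nearest to Ubac2 (0.991) and P4hb (0.987), and Id4 to Rtn4rl1 (0.996) and the transferrin gene Trf (0.985), which stayed at 0.951 and 0.973 with the trend subtracted. Id2 had no such close match, with Vhl (0.893) and Plat (0.890) the nearest. With the trend subtracted Phf20, Thap12, Cep135 and Dmrta2 stood at 0.913 to 0.951 and Ubac2 at 0.871. Pola2, P4hb, Vhl and Plat fell to 0.688, 0.735, 0.684 and 0.408. Between members, Tcf4 and Tcf12 correlated at 0.975 and Tcf4 and Id1 at -0.972, while Id2 lay between -0.10 and 0.42 with the other 6. In trend-subtracted values the first 2 were 0.887 and -0.811, and Id2 lay between -0.18 and 0.67.

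Among tissue-specific partners of the E proteins, 1 passed the test. Of 32 listed, 18 were measured, and 1 was higher and 0 lower, with a median log2 fold change of 0.31 against 0.000553 over all genes. That is 5.56% called, below the 29.6% of all genes, but only 6 of the 18 averaged 10 or more normalised reads. With such genes alone tested 16.7% of the list was called, against 35.5% of all genes. In the trend-subtracted fit it was also 16.7%, against 22%, and the median of the 6 genes there was -0.014. In the main test 5 of the 18 had an unadjusted p under 0.05 in either direction. EdgeR with TMM scaling and DESeq2 also called 1 higher and 0 lower, edgeR among the 6 that passed its filter. Without Phf23-/- 2 the list had 3 higher, and without WT 4 it had 2. The gene that rose was Neurod1, a proneural factor, with 132, 183, 148 and 129 normalised reads in the libraries labelled Phf23-/-, against 70.7, 58.6, 65.3 and 68.8 in WT (log2 1.15 ± 0.16, FDR = 0.00166). Its groups lay well apart, and with the trend subtracted it was at 1.19 (FDR = 0.000306). The more abundant partners did not pass the test. Olig1 averaged 49182 in the libraries labelled Phf23-/- and 41009 in WT (FDR = 0.195), and Olig2 18057 against 16724 in WT (FDR = 0.465). These 2 were picked for their abundance after their values were seen.

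In the bone morphogenetic protein pathway, which acts upstream of Id genes, 2 of 25 measured genes were higher and 6 lower (30 listed, median log2 fold change -0.05). The 32% called was near the 29.6% of all genes, so the count is no result about the pathway. In the trend-subtracted fit 14.3% of its 21 genes were called, against 22% of all genes, and the median was 0.10. The ligand gene Bmp7 had 3443, 3910, 3684 and 3717 normalised reads across the libraries labelled Phf23-/-, against 2859, 2703, 3103 and 3071 in WT (log2 0.33 ± 0.09, FDR = 0.0191). Its groups did not overlap, and it was at 0.26 (FDR = 0.0190) with the trend subtracted. The receptor gene Bmpr2 averaged 2486 ± 206 in the libraries labelled Phf23-/- and 3619 ± 740 in WT (log2 -0.52 ± 0.14, FDR = 0.0156), and its difference turned to 0.07 (FDR = 0.460) with the trend subtracted. Smad5, which carries the signal to the nucleus, averaged 3119 ± 312 in the libraries labelled Phf23-/- and 4226 ± 296 in WT (log2 -0.44 ± 0.10, FDR = 0.0105), and was at -0.06 (FDR = 0.487) with the trend subtracted. In that fit 1 gene of the list was higher (Bmp7) and 2 lower (Acvr2b and Smad4), the last 2 named after their values were seen. The 8 calls became 3 without Phf23-/- 1, 2 without WT 1 and 1 without WT 2. Bmp7 lost its call without WT 1 or WT 2 (FDR = 0.0567 and 0.0727), and Bmpr2 without Phf23-/- 1 or WT 2 (FDR = 0.0542 and 0.0549).

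Of the cofactors that E proteins use and the factors that set Id protein turnover, 18 of 20 listed were measured, with 3 higher, 8 lower and a median log2 fold change of -0.31. The 61.1% called compares with 29.6% of all genes, and with the trend subtracted it was 33.3% against 22%, with a median of -0.085. All 18 averaged 10 or more normalised reads. With such genes alone tested the share was again 61.1%, against 35.5% of all such genes. Ldb1, an adaptor that bridges E protein complexes, averaged 3257 ± 203 in the libraries labelled Phf23-/- and 2284 ± 271 in WT (log2 0.52 ± 0.10, FDR = 0.00672). It stayed called with the trend subtracted (log2 0.32, FDR = 0.00337) and with libraries 3 and 4 only (log2 0.35, FDR = 0.0199). Lmo3, a LIM-only partner of Ldb1, averaged 448 ± 17.6 in the libraries labelled Phf23-/- and 593 ± 48.0 in WT (log2 -0.40 ± 0.10, FDR = 0.0153), and was at -0.26 (FDR = 0.0328) with the trend subtracted. Fzr1, which encodes the Cdh1 activator of the anaphase-promoting complex that marks Id proteins for breakdown, averaged 2497 ± 315 in the libraries labelled Phf23-/- and 1828 ± 156 in WT (log2 0.44 ± 0.11, FDR = 0.0136), and was at 0.20 (FDR = 0.121) with the trend subtracted. In that fit 1 gene of the list was higher and 5 lower. The 11 calls became 3 without Phf23-/- 1, 5 without Phf23-/- 2, 3 without WT 1, 2 without WT 2 and 7 without WT 3. Lmo3 lost its call without WT 1 or WT 2 (FDR = 0.0544 and 0.0516), and Fzr1 without WT 2 (FDR = 0.0506).

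Other repressors that bind E-boxes fell or did not pass the test, with 3 lower and 0 higher among 6 of 7 listed genes (median log2 fold change -0.62, and -0.26 over the 3 genes in the trend-subtracted fit). The 50% called compares with 29.6% of all genes, and 1 of these 3 calls was Snai2, which had few reads. In either direction 4 had an unadjusted p under 0.05, and edgeR (3 genes tested) and DESeq2 each called 0 higher and 2 lower. With the trend subtracted 2 of 3 genes were called lower, 66.7% against 22% of genes. These were Zeb1 and Scrt1 (log2 -0.69, FDR = 0.0358), the last named after its values were seen. Zeb1 had 5526, 5582, 6500 and 7277 normalised reads across the libraries labelled Phf23-/-, against 10696, 9226, 8473 and 8174 in WT (log2 -0.56 ± 0.12, FDR = 0.00875). The groups did not overlap, and Zeb1 was at -0.26 (FDR = 0.0136) with the trend subtracted. Zeb2 averaged 1084 ± 187 in the libraries labelled Phf23-/- and 1752 ± 375 in WT (log2 -0.68 ± 0.16, FDR = 0.0114), and was at -0.14 (FDR = 0.196) with the trend subtracted. Snai2 had 1, 0, 0 and 0 recovered reads in the libraries labelled Phf23-/-, against 6, 3, 3 and 5 in WT, too few for a fold.

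Among cell cycle inhibitor genes, several of which E proteins are known to activate and Id proteins to restrain, all 7 were measured and 4 were higher and 0 lower, with a median log2 fold change of 0.35, and 0.062 with the trend subtracted. The 57.1% called compares with 29.6% of all genes, and with the trend subtracted it was 28.6% against 22%. All 7 averaged 10 or more normalised reads, and with such genes alone tested the share was 57.1%, against 35.5% of all such genes. EdgeR and DESeq2 gave the same counts, and 4 had an unadjusted p under 0.05. Cdkn1a, which encodes p21, had 13789, 15026, 14149 and 12222 normalised reads across the libraries labelled Phf23-/-, against 9570, 9941, 9274 and 9863 in WT (log2 0.51 ± 0.10, FDR = 0.00560). Its groups lay apart, and it was at 0.22 (FDR = 0.0501) with the trend subtracted. Cdkn2d averaged 1025 ± 122 in the libraries labelled Phf23-/- and 715 ± 109 in WT (log2 0.52 ± 0.13, FDR = 0.0134), and Cdkn2b 591 ± 133 against 408 ± 63.7 in WT (log2 0.52 ± 0.17, FDR = 0.0340). With the trend subtracted these stood at 0.08 and 0.06 (FDR = 0.432 and 0.668), and the list had 0 higher and 2 lower (Cdkn1c and Cdkn2a, named after their values were seen). The 4 calls became 1 without Phf23-/- 1, 2 without WT 1 and 1 without WT 2, and 2 with scaling by library size only. Cdkn2d lost its call without Phf23-/- 1 or WT 2 (FDR = 0.0503 and 0.0513). Cdkn2b lost it without Phf23-/- 1 or 2 or WT 1 or 2 (FDR from 0.0783 to 0.114).

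**Figure D5:**
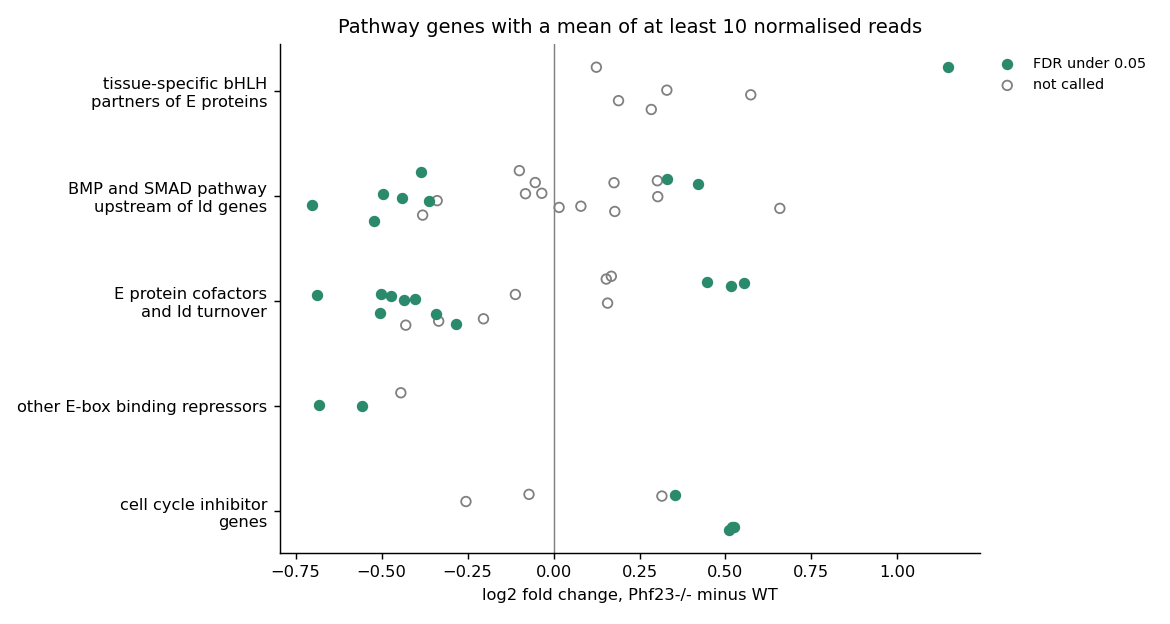
Log2 fold change (x axis, Phf23-/- minus WT, values as deposited) of listed pathway genes that averaged 10 or more normalised reads, 1 point per gene and 1 row per list, filled where FDR was under 0.05. The filled points of the E-box repressors lie below 0 and those of the cell cycle inhibitors above 0, and the partner list has 1 filled point, Neurod1, at 1.15.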

How the data were processed

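Per the labels, 8 bulk RNA-seq libraries of mouse primary embryonic neural stem cells were made from polyadenylated RNA with a NEBNext Ultra kit. The submitters' processing notes name STAR 2.7.1a, DESeq2 1.38.3, fastp 0.23.4, FastQC 0.12.1 and the build mm10. Which read counter, annotation, strand setting and gene filter were applied is not given in the sources used here. Each deposited signal value is a read count of a gene that the authors had divided by a size factor of the library, as a check of the values showed: whole reads were recovered for 100% of values at a tolerance of 1e-04 reads. From 15602 rows, 64 repeats of another row were removed, and 0 columns lay outside the series. Depth ran from 15647304 to 19462516 reads, so counting error was smaller than the spread between libraries for every member except Id4.

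Symbols, coordinates (1-based), lengths and GC content came from GENCODE mouse release M21. Because the values are normalised, limma-trend (limma 3.58.1 in R 4.3.3, with robust empirical Bayes moderation) was run on log2(value + 1) in place of the quasi-likelihood test of edgeR, over all 15538 genes with genotype as the only term, two-sided, with Benjamini-Hochberg adjustment. Every FDR without another tool's name is from it. Fold changes are Phf23-/- minus WT on that scale, and the added 1 shrinks the changes of rarely read genes. The length slope and the subtracted trend (loess, span 0.3) used 13265 genes with a mean of at least 10 and the longest annotated transcript, which need not be the one expressed. The alternatives were edgeR 4.0.16, DESeq2 1.42.0 and limma-voom on the recovered reads, other scalings, filters, a pseudocount of 0.1, a replicate block and leaving out libraries. A trend fitted over genes averaging 100 or more reads was added after the data were seen. The scripts were tested on simulated data.

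The members and gene lists were chosen with earlier results of these data known. Named genes were the 7 members, Phf23, the called genes lowest in FDR from each list (up to 3), and for each member the 2 most correlated protein-coding genes with a mean of at least 100. Genes outside that rule are marked as such, apart from markers, and 1 gene within it is not reported here. Whether replicate numbers pair the libraries could not be told, so the replicate block is given as an alternative. Protein sequences were not used here, so coding bases are compared.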

Additional observations from a re-analysis of the deposited data

Results flagged for a closer look

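Of 52 groups of 4 values examined, 4 held a value far from the other 3, and chance gives about 1 in 20 groups. Id4 had 100.132 normalised reads in WT 3, against 87.2 to 87.4 in the other WT libraries. The recovered reads of Id4 there were 89, against 89 to 91 in the others. WT 3 was also the shallowest library, with 15647304 recovered reads against 17982640 to 18241215 in the other WT libraries. Bmpr2 had 2795.19 normalised reads in Phf23-/- 4, against 2377.67 to 2392.13 in the other libraries labelled Phf23-/-. Snai2 had 0.962676 normalised reads, which was 1 recovered read, in Phf23-/- 1, against 0 in the other 3. No explanation was weighed for these values.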

How the results depend on the processing

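The direction and the call of Tcf4, Tcf12, Id1 and Id4 held under every change of tool, scaling, filter and pseudocount, and when any 1 library was left out. Results moved with transcript length, with the replicate block and, for Tcf3, Id3, the count of called genes and the pathway lists, with single libraries. Scaling by library size only shifted the median of all genes by -0.06 and gave 1827 higher and 2757 lower, against 2301 and 2292, and 2 cell cycle inhibitor genes in place of 4. Same-numbered libraries deviated oppositely from their group means (correlations -0.33, -0.13, -0.19 and -0.28). Across genotypes, so did every other pair within numbers 1 and 2 or within 3 and 4, while all remaining pairs deviated together. The length slopes, taken from their group means, split the libraries in the same way. These correlations therefore cannot show whether the replicate numbers pair the libraries. With the replicate block 333 genes were called, against 4593, with 1 of 7 members (Id4) and 1 pathway gene. Differences under the block were 0.41 for Tcf3, -0.82 for Tcf4, -0.60 for Tcf12, 1.12 for Id1 and 0.54 for Id3 (FDR = 0.0803, 0.0518, 0.0592, 0.0567 and 0.0769).

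With the length and GC trend subtracted, 2912 genes and 14 pathway genes were called, against 4593 and 27, and Tcf3 and Id3 stood at 0.12 and 0.066. With the trend fitted over genes averaging 100 or more reads the counts were 2625 and 11, Tcf3 was at 0.076 (FDR = 0.327) and Id3 at -0.00018 (FDR = 0.999). With trend and block together 1409 genes, 3 members and 7 pathway genes were called, and Tcf3, Tcf12 and Id3 were at 0.12, -0.24 and 0.066 (FDR = 0.260, 0.0637 and 0.574). With the slope covariate 170 genes, 0 members and 1 pathway gene (Lmo1, named after its values were seen) were called, with Tcf3, Tcf4, Tcf12, Id1, Id3 and Id4 at 0.14, -0.31, -0.16, 0.32, -0.0071 and 0.85. With libraries 3 and 4 only, 1422 genes and 4 pathway genes were called, and Tcf3 and Id3 were both at 0.16. Bmpr2 turned to 0.074 with the trend subtracted, with or without the block, and to 0.090 in the added fit. Cdkn2b turned to -0.067 with the covariate and to -0.00023 in the added fit. The cause of these changes was not tested.

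Leaving out 1 library gave 1884 to 5861 called genes (1884, 2189 and 2106 without Phf23-/- 1, WT 1 and WT 2), 4 to 6 members and 8 to 29 pathway genes. The differences ran from 0.34 to 0.51 for Tcf3, 0.45 to 0.67 for Id3 and -0.14 to 0.061 for Id2, which was above 0 only without WT 3 (0.061, FDR = 0.757). The E protein to Id difference ran from -0.97 to -0.70, and was -0.24 with the trend subtracted. Over 8 libraries, reads per kb by the union of exons were 805.5 for Tcf3, 366 for Tcf4, 420.0 for Tcf12, 556 for Id2 and 1220.4 for Id3, and by the median protein-coding transcript 5437 for Tcf4, 2889.5 for Tcf12 and 1067 for Id2.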
